A study of Homo sapiens with 4 samples.

Results

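The transcripts described here are 6 noncoding RNAs linked to growth and cancer: the small nucleolar RNA (snoRNA) hosts GAS5, SNHG1 and DANCR, and the long noncoding RNAs TUG1, PVT1 and CCAT1. Their poly(A) regions were taken by position, as all rows of the deposited table that lie on the gene's strand inside a fixed hg19 window around each gene. This gave 12 of the 31081 poly(A) regions of the table, with 11357 of its 17073064 reads (0.0665%). All 12 regions held at least 10 reads and 5% of their gene's reads, which is called passing below, and 6 held at least 100 reads.

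The samples were 4 libraries of DICER(ex5), a line derived from the human colon cancer line HCT116 and labelled as a hypomorph for Dicer, the ribonuclease that cuts microRNA precursors. All 4 libraries carry this same allele and none has a treatment or a control line beside it, so the comparisons are between genes, between poly(A) regions of a gene and between libraries. The submitters' design text speaks of biological quadruplicates. No source used here says whether DICER(ex5) is a single clone. Poly(A) site sequencing reads the junction of a transcript and its tail, so a read marks the position of an RNA end and levels need no scaling by transcript length.

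A snoRNA host gene carries snoRNAs in its introns. Once the intron is spliced out it is trimmed to the snoRNA, which guides chemical modification of ribosomal RNA, while the spliced exons form a polyadenylated RNA with little or no protein coding capacity. Many such hosts, GAS5 and SNHG1 among them, begin with a pyrimidine tract as ribosomal protein mRNAs do, and their spliced RNAs are removed by nonsense-mediated decay when they are translated. TUG1 is a mostly nuclear and ubiquitous transcript, PVT1 is a long neighbour of the oncogene MYC that also contains microRNA hairpins, and CCAT1 is a transcript from the MYC region that was named for its presence in colon cancer. Poly(A) reads measure the host RNA with its tail, and neither the snoRNAs nor the microRNAs cut from it.

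The libraries held 2163977 to 5713530 reads. At DICER1 itself, 5 regions inside the gene gave 40.7, 37.4, 21.5 and 20.8 CPM (counts scaled to the library total) in the 4 libraries in order. Without a parental line, and with 3' ends that need not lie in the altered exon, these levels do not check the allele. The epithelial genes EPCAM and KRT18 gave 1019 ± 108 and 950.4 ± 74.9 CPM, and CDH1 gave 64.5 ± 14.3 (SD, n = 4). KRT8 gave 19.5 ± 16.4 CPM (SD, n = 4). It gave 7.68, 3.70, 29.4 and 37.4 CPM in libraries 1 to 4, with the highest 10.1-fold above the lowest. No region lay in the window of the leukocyte gene PTPRC. Across the table, libraries 1 and 2 stood apart from libraries 3 and 4, as the shares of loci and regions called below show. No label gives a batch, so each library is shown by itself and values within a batch cannot be given.

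Of the 3 snoRNA hosts described here, SNHG1 had the highest mean level. Its single region was 46 bases wide (chromosome 11, minus strand, 62619437 to 62619482). It gave 237.0 CPM in library 1, 273.1 in library 2, 188.7 in library 3 and 202.3 in library 4, a mean of 225.3 ± 37.8 CPM (SD, n = 4). Libraries 1 and 2 lay above libraries 3 and 4, and the highest was 1.45-fold above the lowest, close to the median of 1.40-fold over the 11101 loci with at least 100 reads. A locus is a set of regions of a strand within 5 kb of the next. SNHG1 stood at rank 871 of 17962 loci by mean CPM. The SD was larger than the 7.99 CPM that counting alone would give.

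GAS5 gave 105.0 CPM in library 1, 77.6 in library 2, 195.5 in library 3 and 170.9 in library 4, a mean of 137.3 ± 55.1 CPM (SD, n = 4). Here the order was opposite to that of SNHG1: libraries 3 and 4 were high and libraries 1 and 2 low. The shares of loci and regions called below do not separate the directions, so how common this direction is was not computed. Library 3 was 2.52-fold above library 2, and counting alone would give an SD of 5.77 CPM. GAS5 hosts box C/D snoRNAs, and its RNA is known to accumulate when growth is arrested. It stood at rank 1615 of the loci.

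Reads of GAS5 ended at 2 regions of the minus strand of chromosome 1. The most 3' one (173833029 to 173833060) gave 94.0, 63.8, 185.7 and 161.9 CPM in libraries 1 to 4. The other (173833264 to 173833302), 235 bases before it, gave 10.9, 13.9, 9.80 and 9.04 CPM. The difference in level between libraries was thus seen at the most 3' region, where the highest library was 2.91-fold above the lowest, while the upstream region was 1.53-fold higher in library 2 than in library 4. The share of the most 3' region was 89.6% in library 1, 82.1% in library 2, 95.0% in library 3 and 94.7% in library 4, a mean of 90.4% ± 6.01 (SD, n = 4). In library 2 the 95% Wilson interval of the share was 75.7% to 87.2%, and in library 3 it was 93.5% to 96.1%. The intervals account for counting error alone, because PCR copies may be among the reads.

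DANCR, which hosts a box H/ACA snoRNA and is known to hold back the differentiation of epidermal progenitors, was among the steadiest of the 6 genes. Its single region on the plus strand of chromosome 4 (53580268 to 53580314) gave 126.8 CPM in library 1, 125.7 in library 2, 140.0 in library 3 and 147.1 in library 4. The mean was 134.9 ± 10.4 CPM (SD, n = 4), with 6.00 CPM expected from counting alone, at rank 1643. Libraries 3 and 4 were the higher ones, by at most 1.17-fold. The DANCR gene also holds a microRNA hairpin on its strand, on build GRCh38.p14 of RefSeq. Its mature product is shown because the cells carry a Dicer allele, and capitals mark the seed, bases 2 to 8 of the microRNA.
hsa-miR-4449: cGUCCCGGggcugcgcgaggca
Its level is not measured by poly(A) reads.

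**Figure D1:**
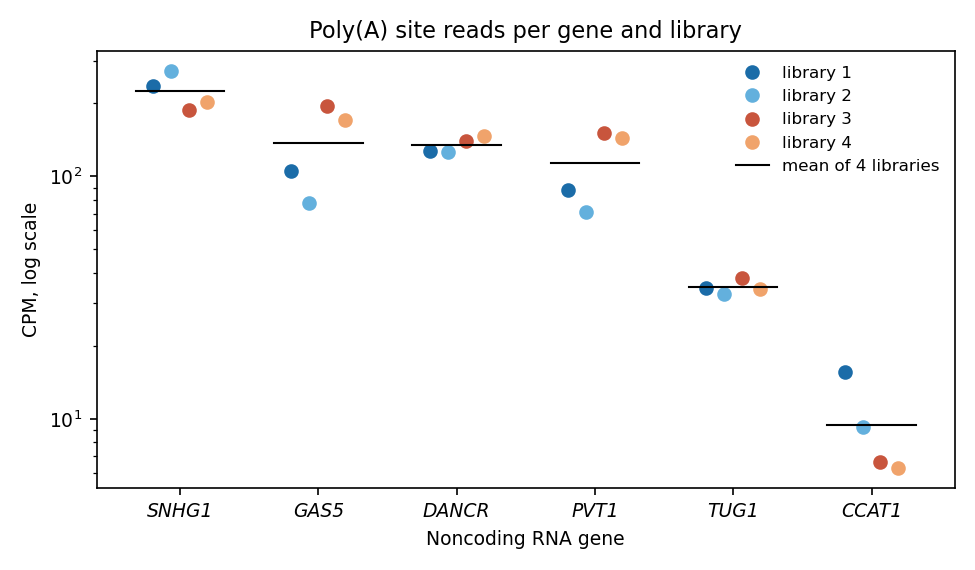
Reads per gene in each library, in CPM on a log axis. Points are the 4 libraries and bars their mean. GAS5 and PVT1 lie higher in libraries 3 and 4, SNHG1 and CCAT1 lie higher in libraries 1 and 2, and the libraries lie close together for DANCR and TUG1.

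Of the remaining transcripts, TUG1 was the steadiest. It gave 34.5, 32.8, 38.0 and 34.4 CPM in libraries 1 to 4, a mean of 34.9 ± 2.18 (SD, n = 4). The SD was below the 3.04 CPM expected from counting alone, so no difference between libraries was detectable at this depth. TUG1 lay at rank 5409 of the loci.

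TUG1 reads ended at 3 regions of the plus strand of chromosome 22. The middle region (31374827 to 31374843), 564 bases before the most 3' one, was the main end in every library, with 29.6, 25.0, 31.5 and 27.9 CPM. It took 85.6%, 76.1%, 82.9% and 81.0% of the gene's reads, a mean of 81.4% ± 4.02 (SD, n = 4). The most 3' region (31375373 to 31375407) took 5.00%, 14.1%, 9.68% and 8.76%. With 9 to 21 reads in a library, the Wilson interval of its share was 2.65% to 9.23% in library 1 and 7.83% to 24.0% in library 2. The most 5' region (31372914 to 31372932) held 7 to 17 reads in a library and took 9.22% ± 1.27 (SD, n = 4). The strongest end of TUG1 was therefore not its last, whereas that of GAS5 was.

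Windows of the RefSeq table of promoters (GRCh38.p14, 250 bases before to 50 after each start) were searched for 4 of the 6 genes. These were GAS5, SNHG1, DANCR and TUG1, each by the first window listed for it. No promoter of PVT1 or CCAT1 was searched, so the absence of a match for them is not a result. The motif CACGTG, the E-box that MYC and related factors bind, and the TATA motif TATAAA were searched on both strands. The first was in the TUG1 window only, 77 bases before the start, and 7.26% of 35116 windows held it. The other was in the SNHG1 window only, in the reverse direction from base 40 after the start, and 11.5% of windows held it. Capitals mark the matches below, with TUG1 on the plus strand (chr22:30969168-30969213) and SNHG1 on the minus strand (chr11:62855836-62855866).
TUG1: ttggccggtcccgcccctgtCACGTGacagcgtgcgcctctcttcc
SNHG1: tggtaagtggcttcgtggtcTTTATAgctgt
A match describes these letters and is not a binding site. Poly(A) reads do not measure promoter activity, so no value here bears on these sequences.

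PVT1 ended at a single region in a window of 309 kb. This region was 19 bases wide (chromosome 8, plus strand, 129113491 to 129113509). It gave 87.7 CPM in library 1, 71.6 in library 2, 150.3 in library 3 and 144.3 in library 4, a mean of 113.5 ± 39.7 CPM (SD, n = 4). As for GAS5, libraries 3 and 4 were higher than libraries 1 and 2, and library 3 was 2.10-fold above library 2. Counting alone would give an SD of 5.30 CPM, and PVT1 stood at rank 1995 of the loci. The nearest region upstream on the same strand was the most 3' region of MYC, 359801 bases away.

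MYC encodes the transcription factor whose gene lies between CCAT1 and PVT1. Its 3 regions together gave 270.4, 310.1, 134.1 and 150.8 CPM in libraries 1 to 4. MYC was thus high in the libraries where PVT1 was low. The libraries divide in this way across the table, and how many loci share either direction was not counted. The most 3' region of MYC took 76.7%, 82.7%, 51.6% and 57.2% of its reads. Over 4 libraries no correlation of MYC and PVT1 was computed.

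CCAT1 had the fewest reads of the 6 genes, 164 in all, at 4 regions of the minus strand of chromosome 8 spread over 21798 bases. It gave 15.5 CPM in library 1, 9.24 in library 2, 6.65 in library 3 and 6.27 in library 4, a mean of 9.43 ± 4.29 CPM (SD, n = 4). Library 1 was the highest, and counting alone would give an SD of 1.58 CPM. No CCAT1 region held 100 reads.

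A region of 3 bases accounted for much of the spread of CCAT1. This region (128201633 to 128201635) held 32 reads in library 1, 3 in library 2 and 0 in libraries 3 and 4. It reached 11 reads, the least found in the highest library of any deposited region, in library 1 only. Regions lower than this in all libraries are not listed, so its height in library 1 is not support for a difference. A count of 0 allows up to 0.525 CPM in library 3 and 0.753 CPM in library 4, taking 3 reads as the limit. Regions of 5 bases or fewer took 1.80%, 1.59%, 0.170% and 0.180% of all reads in the 4 libraries in order, and their part in the difference between libraries was not tested further. Without the 3-base region, CCAT1 gave 9.40, 7.86, 6.65 and 6.27 CPM. With it, library 1 was 2.48-fold above library 4.

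The other 3 regions of CCAT1 were thinly read in every library. The most 5' one (128219621 to 128219639) held 19, 4, 14 and 3 reads, and the next (128217029 to 128217041) held 13, 6, 16 and 13. The most 3' one (128197823 to 128197842) held 17, 7, 8 and 9 reads, or 28.3% ± 8.37 of the gene's reads (SD, n = 4). Like the 3-base region, it reached 11 reads in library 1 only. The region with the most reads in all took 16.05%, 30.0%, 42.1% and 52.0% of the gene's reads in libraries 1 to 4. No end of CCAT1 was dominant in all libraries.

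**Figure D2:**
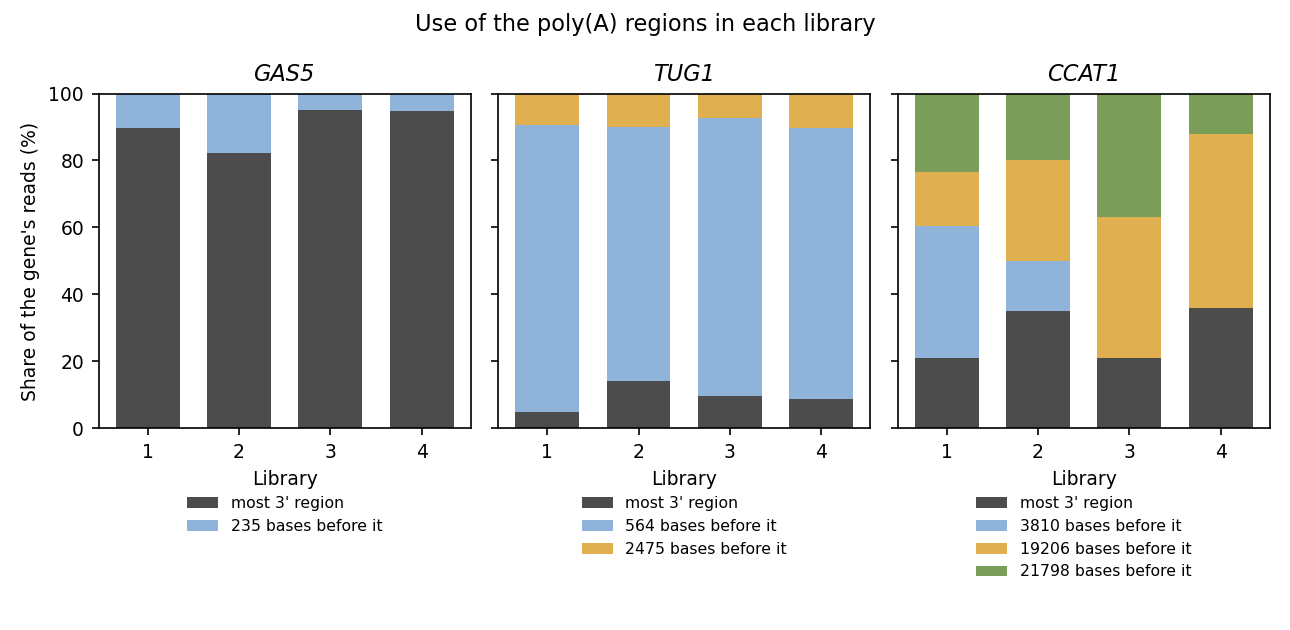
Share of each gene's reads (percent, vertical axis) at its poly(A) regions in libraries 1 to 4, for the 3 genes with several regions. Colours give the distance in bases from the most 3' region, which held most reads of GAS5 in every library and 5.00% to 14.1% of those of TUG1.

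By mean CPM the order of the levels was SNHG1, GAS5, DANCR, PVT1, TUG1 and CCAT1. GAS5 and DANCR changed places on the log2(CPM + 1) scale (a mean difference of -0.07, GAS5 minus DANCR), without library 3 (117.8 and 133.2 CPM) and without library 4 (126.0 and 130.9 CPM). The first 4 overlapped with their neighbours in this order. SNHG1 was above GAS5 in 3 of 4 libraries, GAS5 above DANCR in 2 and DANCR above PVT1 in 3, with two-sided exact sign-flip permutation p of 0.25, 0.875 and 0.375 for the paired log2(CPM + 1) differences. PVT1 was above TUG1, and TUG1 above CCAT1, in 4 of 4 libraries with no overlap of their ranges. The mean differences were 1.60 ± 0.46 and 1.86 ± 0.58 on the log2(CPM + 1) scale (SD, n = 4). Each of these had an exact permutation p of 0.125, the smallest that 4 pairs allow, and 0.3125 after Benjamini-Hochberg adjustment over the 5 pairs. No pair could therefore pass a threshold of 0.05. In a bulk culture, fewer cells with a transcript and less of it per cell cannot be told apart.

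How the ends of these genes compared with those of other loci was asked next. SNHG1, DANCR and PVT1 had 1 region each, and 3 of the 6 genes had several passing regions, against 45.7% of the loci with at least 100 reads. The main region of GAS5 held 92.9% of its reads with the libraries summed, against a median of 79.9% over the 2971 loci with 2 passing regions. That of TUG1 held 82.5%, against a median of 63.2% over the 1293 loci with 3, and that of CCAT1 held 29.3%, against 49.7% over the 523 loci with 4. GAS5 and TUG1 were thus more concentrated on 1 end than the median locus with as many regions. CCAT1 was taken whole by its window, although its regions at 19206 and 3810 bases before the last lie further apart than 5 kb. The 5 kb rule would divide it, so its share is not like those of the 523 loci. Whether its regions belong to 1 transcript was not tested. These shares are descriptions with no test.

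Usage of the strongest region was compared between each of the 6 pairs of libraries by Fisher's exact test (two-sided). Every library was first thinned to the total of library 2, the smallest, and p was adjusted by the Benjamini-Hochberg method over 5071 loci. Such a test compares libraries and not conditions. GAS5 differed between libraries 2 and 3 (82.1% and 95.2% of thinned reads at the most 3' region, adjusted p = 3.14e-05) and between libraries 2 and 4 (82.1% and 94.4%, adjusted p = 0.000326). Of all loci, 18.1% and 15.8% were called in these pairs. Over the 8 alternatives tried the adjusted p ranged from 1.00e-06 to 0.000214 for libraries 2 and 3, and from 1.61e-05 to 0.000360 for libraries 2 and 4. Of these, other joining distances, regions of 5 bases or fewer left out and the distal region leave the counts of GAS5 as they were. They change only the adjustment. The share of the most 3' end of GAS5 was thus lower in library 2 than in libraries 3 and 4. This held for unthinned counts and in every draw of the thinning.

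The other calls were less stable. GAS5 was also called between libraries 1 and 3 (adjusted p = 0.00543, with 11.4% of loci called) and between libraries 1 and 4 (adjusted p = 0.0297, with 10.4% called). With other random draws of the thinning, the adjusted p of Fisher's test rose as high as 0.817 and 0.425 in these pairs. CCAT1 was called between libraries 1 and 3 (adjusted p = 0.0462), and in 3 of the 8 alternatives, over which the adjusted p of Fisher's test ranged from 0.0150 to 1. These 3 were unthinned counts and joining within 2 kb or 10 kb, and the joining leaves the counts of CCAT1 as they were. With regions of 5 bases or fewer left out, Fisher's test did not call CCAT1 (adjusted p = 0.470). It was also not called at the distal region (adjusted p = 0.963 by Fisher's test) or in any of the 3 other random draws. Between libraries 1 and 4, CCAT1 was not called (adjusted p = 0.143), but was in 2 of the 8 alternatives, with adjusted p from 0.00689 to 0.630. TUG1 was called in none of the 6 pairs, and its smallest adjusted p by Fisher's test was 0.603, with 0 pairs under an unadjusted 0.05. No gene of the 3 was called between libraries 1 and 2 or 3 and 4, where 0.375% and 0.0197% of loci were called.

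Between-library differences in level were counted at the 6 regions with at least 100 reads. The most 3' region of GAS5 and the region of PVT1 were over 2-fold apart between libraries 2 and 3 and between libraries 2 and 4, where 18.5% and 17.7% of 15359 regions were. By library totals, no other pair of libraries had any of these 6 regions over 2-fold apart. Between libraries 1 and 3 the most 3' region of GAS5 was 1.97-fold apart by library totals, 2.15-fold with TMM factors and 2.10-fold with DESeq2 size factors. The region of PVT1 was 2.01-fold apart between libraries 2 and 4, and 1.99-fold with regions of 5 bases or fewer left out of the totals. The share of all regions in those pairs was 2.08% for libraries 1 and 2, 12.8% for libraries 1 and 3, 12.2% for libraries 1 and 4 and 1.9% for libraries 3 and 4. In any pair, 2 of the 6 were, against 22.3% of regions, so the count rests on few regions and is close to the background. The regions of SNHG1, DANCR, the main region of TUG1 and the upstream region of GAS5 stayed within 2-fold in all pairs. Without library 2, no region of these 6 was over 2-fold apart by library totals.

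**Figure D3:**
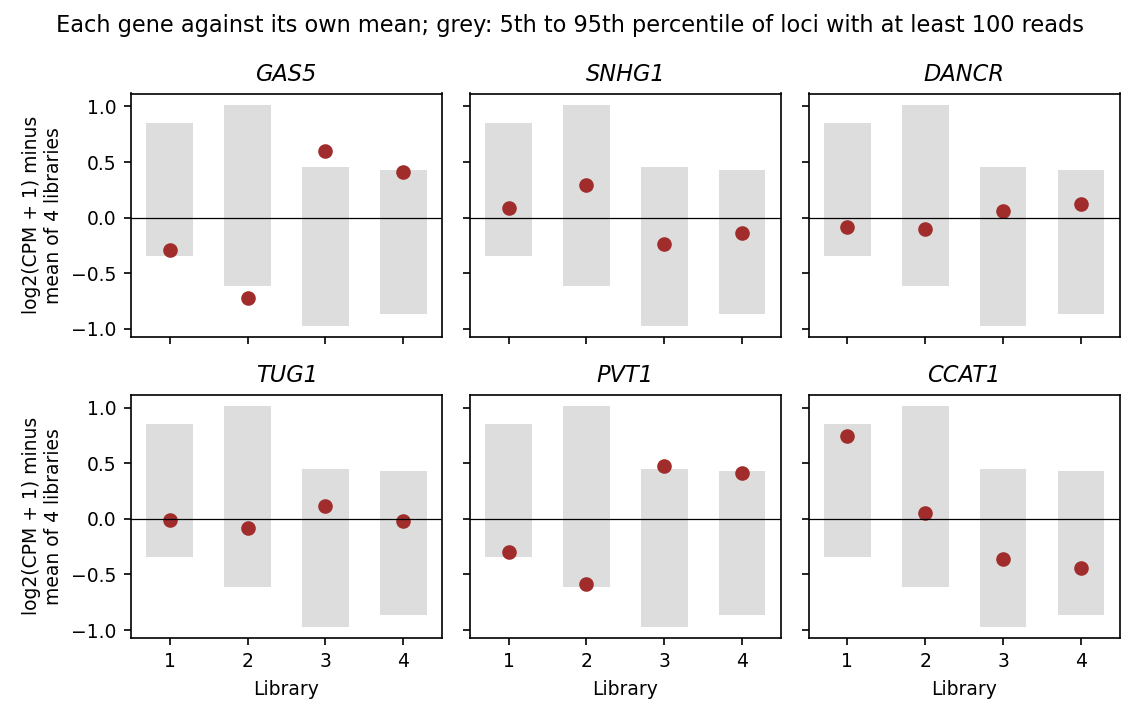
Level of each gene in libraries 1 to 4, as log2(CPM + 1) minus the gene's mean over the 4 libraries. Grey boxes span the 5th to 95th percentile of 11101 loci with at least 100 reads. GAS5 lies outside the box in libraries 2 and 3, PVT1 lies just above it in library 3, and DANCR and TUG1 lie near 0.

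GAS5 and PVT1 had similar profiles over the libraries. On the log2(CPM + 1) scale, each centred on its mean, the root mean square distance between them was 0.093. In 4343 other loci no library had fewer than 100 reads. Of these, 19 were closer to GAS5 than PVT1 was, and 58 were closer to PVT1 than GAS5 was. DANCR and TUG1 were 0.088 apart, but 842 of the loci were closer to DANCR than TUG1 was. The distance between GAS5 and SNHG1, both snoRNA hosts, was 0.74. The likeness of GAS5 and PVT1 rests on 4 libraries that fall into pairs across the table. Many regions differed in level between those pairs, but how many did so in the direction of GAS5 and PVT1 was not counted.

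The locus closest to each gene by this measure was found by position, since the table gives no gene names. For GAS5 it lay on the plus strand of chromosome 2 (130948257 to 130948310), at a distance of 0.022, with 117.4, 89.6, 225.6 and 199.3 CPM in libraries 1 to 4. For PVT1 it lay on the plus strand of chromosome 13 (113976891 to 113978002, distance 0.024). The one for SNHG1 was on chromosome 7 (plus strand, 66420671 to 66423546, distance 0.0070). The one for DANCR was on chromosome 15 (minus strand, 64650718 to 64658252, distance 0.0043), and the one for TUG1 was on chromosome 1 (minus strand, 65298900 to 65298932, distance 0.0082). Each of these is the smallest of 4343 distances, which were not set against counting error. CCAT1 had no locus as close, and its nearest, on chromosome 19 (minus strand, 47278133 to 47278150), was 0.15 away. The CCAT1 profile includes its 3-base region and rests on 20 to 81 reads in a library. CCAT1 in every library, and TUG1 in library 2 with 71 reads, were below the minimum set for the compared loci. The larger distance of CCAT1 is thus not read as an unusual profile.

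Poly(A) regions of the same strand outside each gene's window lay 10012 bases or more from its main region. The nearest one to the main region of SNHG1 was 10216 bases away, and those of DANCR, GAS5 and TUG1 were 10012, 64309 and 71003 bases away. Such distances were not computed for other loci, which the joining rule sets more than 5 kb apart. On the opposite strand, the main region of GAS5 had its nearest neighbour 3536 bases downstream (173829468 to 173829493, 32 reads in all), the shortest such distance among the 6. Priming of oligo(dT) on internal stretches of A was not tested.

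A list of 11 other snoRNA host genes was read by windows in the same way. All 11 had at least 1 region, 4 had exactly 1, and 3 had several passing regions. Their median level was 116.4 CPM, against 124.2 CPM over the 6 genes described here and 33.4 CPM over loci with at least 100 reads. ZFAS1 (613.0 ± 141 CPM) and SNHG6 (428.0 ± 34.1) were the highest, above SNHG1, while SNHG7 (65.5 ± 6.28) and SNHG5 (61.0 ± 25.5; SD, n = 4) had the lowest means, above that of TUG1. Some of the 11 were highest in library 2, as SNHG1 was, and others in library 3 or 4, as GAS5 and DANCR were. The hosts did not all have the same highest library. The share of all loci by highest library was not computed, so this is not read as a trait of hosts. The strongest region differed in usage in any pair of libraries at 2 of the 3 hosts that could be tested (Fisher's exact test, adjusted p under 0.05), and at 24.6% of all loci.

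**Figure D4:**
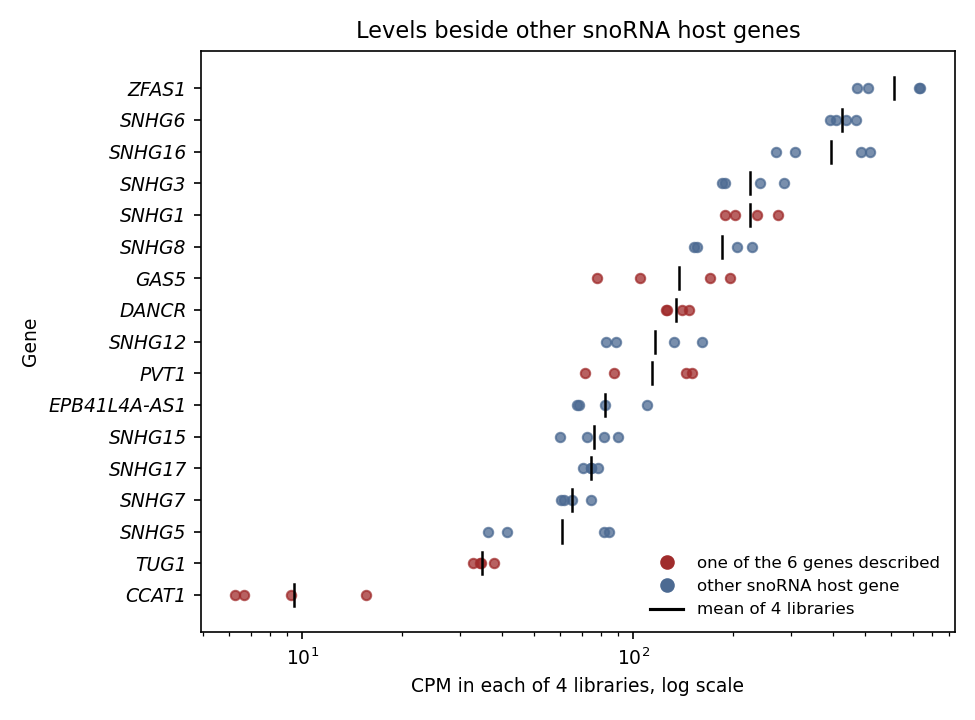
Levels of the 6 genes (red) and of 11 other snoRNA host genes (blue) in CPM on a log axis, with 1 point per library and a bar at the mean of 4. By mean, SNHG1, GAS5 and DANCR lie within the range of the other hosts, and TUG1 and CCAT1 lie below it.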

How the data were processed

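The authors deposited raw read counts at poly(A) regions, with a column for each of 4 libraries, per the file headers. Bowtie2 2.2.5 and hg19 are listed in the submitters' processing notes. No source used here gives how regions were formed or whether duplicates were removed. Positions are printed as deposited.

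Counts were scaled to the library total (CPM). Library totals were 5211279, 2163977, 5713530 and 3984278. Regions within a gene's window were summed. Elsewhere, regions of a strand within 5 kb were joined into loci. The distal region is the most 3' passing one. Fisher's exact test was tested on simulated data. The windows of the 6 genes come from a given list. Those of the 11 other hosts, DICER1, MYC and the markers were set from general knowledge of hg19. RefSeq (GRCh38.p14) matched the chromosome of all 11 hosts and the strand of the 9 whose strand it gave, and 10 windows were at least as long as the gene. The MYC window of 6000 bases was shorter than its RefSeq gene of 7518 bases, and its strand was not given. The named genes are all 6 members, the nearest locus to each, MYC and the 2 highest and 2 lowest other hosts. The members and lists were chosen with earlier results of these data known. Alternatives were edgeR 4.0.16 TMM factors, DESeq2 1.42.0 size factors, other minimums, joining distances and folds, merged ends, narrow regions left out, unthinned counts, each library left out and, added after seeing the data, 3 other random draws of the thinning. Other tools were Python 3.11.15, scipy 1.17.1 and pandas 2.3.3.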

Additional observations from a re-analysis of the deposited data

How the results depend on the processing

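No paired analysis was possible because the series has 1 group. Each gene's mean level moved by less than its SD under both scalings and without narrow regions. Both scalings were centred over the 4 libraries, so they could move a mean over these only a little. TMM raised library 3 against library 1 by 0.12 on the log2 scale for all loci, and libraries 1 and 2 for DANCR and 1 and 4 for TUG1, which were nearly level by library totals, then changed order. With each library left out in turn, the share of the region of CCAT1 with the most reads ranged from 18.2% (without library 3, when another region was the strongest) to 43.1% (without library 1). Calls of usage over the 6 pairs numbered 5 for the described genes and 2846 for all loci. They ranged from 2 to 3 and from 1106 (without library 2) to 1722 (without library 1) with a library left out, since fewer pairs remain. Unthinned counts gave 4641 calls over all loci, and 2 of the 3 other random draws gave 3 and 2 calls of the described genes. The 4 cases of a region over 2-fold apart in a pair of libraries became 11 with a minimum of 40 reads, 9 at 1.5-fold, 0 at 3-fold, 5 under both scalings and 3 without narrow regions, and ranged from 0 (without library 2) to 4 with a library left out. With a 10% minimum, GAS5 and TUG1 had a single passing region and no distal share. Dixon's test of 24 levels and shares found 0 with an outlying library. CCAT1, with 20 to 81 reads in a library, is the gene whose values depth limits most.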

Other observations

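SNHG5, a host of box C/D snoRNAs and the least abundant of the 11 other hosts, divided its reads between 2 ends that lay 88 bases apart on the minus strand of chromosome 6. The upstream end (86386792 to 86386828) gave 11.9, 9.24, 74.0 and 66.0 CPM in libraries 1 to 4. The most 3' end (86386704 to 86386746) gave 24.6, 32.3, 10.5 and 15.6 CPM. The upstream end was thus the minor one in libraries 1 and 2, with 32.6% and 22.2% of the reads, and the major one in libraries 3 and 4, with 87.6% and 80.9%. By Fisher's exact test on thinned counts the share differed between libraries 1 and 3 (adjusted p = 1.43e-19) and between libraries 2 and 4 (adjusted p = 2.52e-19), where 11.4% and 15.8% of loci were called. Between libraries 1 and 2 the adjusted p was 0.984, and between libraries 3 and 4 it was 1. GAS5, also high in libraries 3 and 4, had its 2-fold differences at its most 3' end, while its upstream end stayed within 2-fold.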
